A study of Mus musculus with 6 samples.

Results

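The genes described here encode mainly the plasma membrane and lysosomal transporters of sugars, amino acids, peptides and monocarboxylates in 11 solute carrier families, SLC1, SLC2, SLC3, SLC5, SLC6, SLC7, SLC15, SLC16, SLC36, SLC38 and SLC43. Members were taken by gene symbol alone, and 105 of the 23366 counted genes carried such a symbol. Their mRNA was measured by RNA-sequencing in epithelial cells of the small intestine from mouse embryos at E13.5, in 3 libraries from wild type embryos and 3 from embryos of the genotype *Shh-cre-egfp*:*Tcf7l1 lox/lox* (mutant), numbered 1 to 3 within each group. In the mutants, Cre recombinase is produced from the *Shh* locus in the gut epithelium and removes a floxed exon of *Tcf7l1*, which encodes a transcriptional repressor of WNT target genes. No treatment is named, strain, litter and sex are not stated, and each library was made from 500 living EpCAM-positive cells. No library with Cre and intact *Tcf7l1* was analysed, so that effects of the Cre allele and of *Tcf7l1* loss cannot be told apart. Whether a library came from 1 embryo or a pool is not stated, and p-values measure the spread between these libraries.

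In the mature small intestine, sugars and amino acids enter enterocytes through carriers of the brush border, often coupled to sodium or protons, and leave through facilitative carriers and exchangers of the basolateral membrane. Several amino acid exchangers are heterodimers, in which a light chain of the SLC7 family carries the substrate and a heavy chain, SLC3A1 or SLC3A2, brings it to the membrane. Growing cells of many tissues use another set, including the glucose carrier GLUT1, the glutamine carriers of the SLC1 and SLC38 families and the cystine exchanger xCT, whose genes respond to amino acid supply and oxidative stress.

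The libraries held between 18216537 and 20397278 counts, and between 0.173% and 0.193% of them fell on the 105 transporter genes. *Tcf7l1* was between 364 and 476 normalized counts in wild type libraries and between 33.0 and 73.0 in mutant libraries, and *Shh* fell as well, by 1.28 on the log2 scale (adjusted p = 6.1e-05). Summed counts of 6 epithelial markers were between 129200 and 140400 in wild type and between 133200 and 137000 in mutant libraries. Of the 6, 2 were called lower, *Cdh1* (log2 fold change of -0.57, adjusted p = 0.001) and *Krt18* (-0.54, adjusted p = 2.7e-05), while *Epcam* (0.25, adjusted p = 0.013) and *Cldn7* (0.24, adjusted p = 0.0091) had every mutant library above the wild type libraries and were not called. Markers of other cells were low in comparison. The 6 mesenchyme genes found in the files summed to between 1225 and 1432 in wild type and between 883 and 968 in mutant libraries, most of it *Vim*, with none of the 2 tested genes called. The 7 blood genes summed to between 20.9 and 32.6 in wild type and between 5.33 and 10.4 in mutant libraries, with *Ptprc*, *Hba-a1*, *Hba-a2* and *Hbb-bh1* at 0 throughout. The 4 endothelium genes stayed at or under 20.7, with *Cdh5*, *Kdr* and *Tek* at 0. The 6 neural genes lay between 180 and 378 over all libraries and the 5 pancreas genes between 5.59 and 17.8, with none called. Liver genes summed to between 4226 and 5133 in wild type and between 3236 and 3649 in mutant libraries, most of it *Afp*. *Alb* had 1, 6 and 0 raw counts in wild type 1, 2 and 3 and 0 in each mutant library. Of the 3 liver genes tested, 1, *Serpina1a*, was called lower. The wild type libraries carried counts of 4 Y-linked genes and none of *Xist*, and the mutant libraries the reverse, so that sex and genotype cannot be told apart. The part of these cells and of sex in the results below was not tested. In bulk libraries, fewer cells of a type and less RNA per cell cannot be told apart.

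Of the 105 transporter genes, 13 had 0 counts in all 6 libraries, 33 had counts but did not pass edgeR's filter on low counts, and 59 were tested. A call of higher or lower in the mutants required 3 things, namely an adjusted p below 0.01, a log2 fold change of 0.5 or more in either direction and 50 or more normalized counts on average. Of the 59 tested, 2 were called higher, *Slc3a2* and *Slc7a9*, and 5 lower, *Slc7a11*, *Slc2a3*, *Slc15a2*, *Slc6a6* and *Slc7a5*. These are 3.39% and 8.47% of the tested transporter genes, beside 2.78% and 5.83% of all 12501 tested genes, or 8.62% in both directions together. Both sets include tested genes that averaged under 50 normalized counts and could not be called, and their portions were not compared. On these denominators the numbers of calls were close to what the whole transcriptome showed, and the results below concern single transporters. Groups did not overlap for 13 of the 59, or 22.0%, beside 43% of all tested genes. The fitted fold change was above 0 for 33 of the 59, or 55.9%, beside 45.7% of all tested genes. The median log2 fold change of the tested transporters was 0.05, and that of all tested genes was -0.04.

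**Figure D1:**
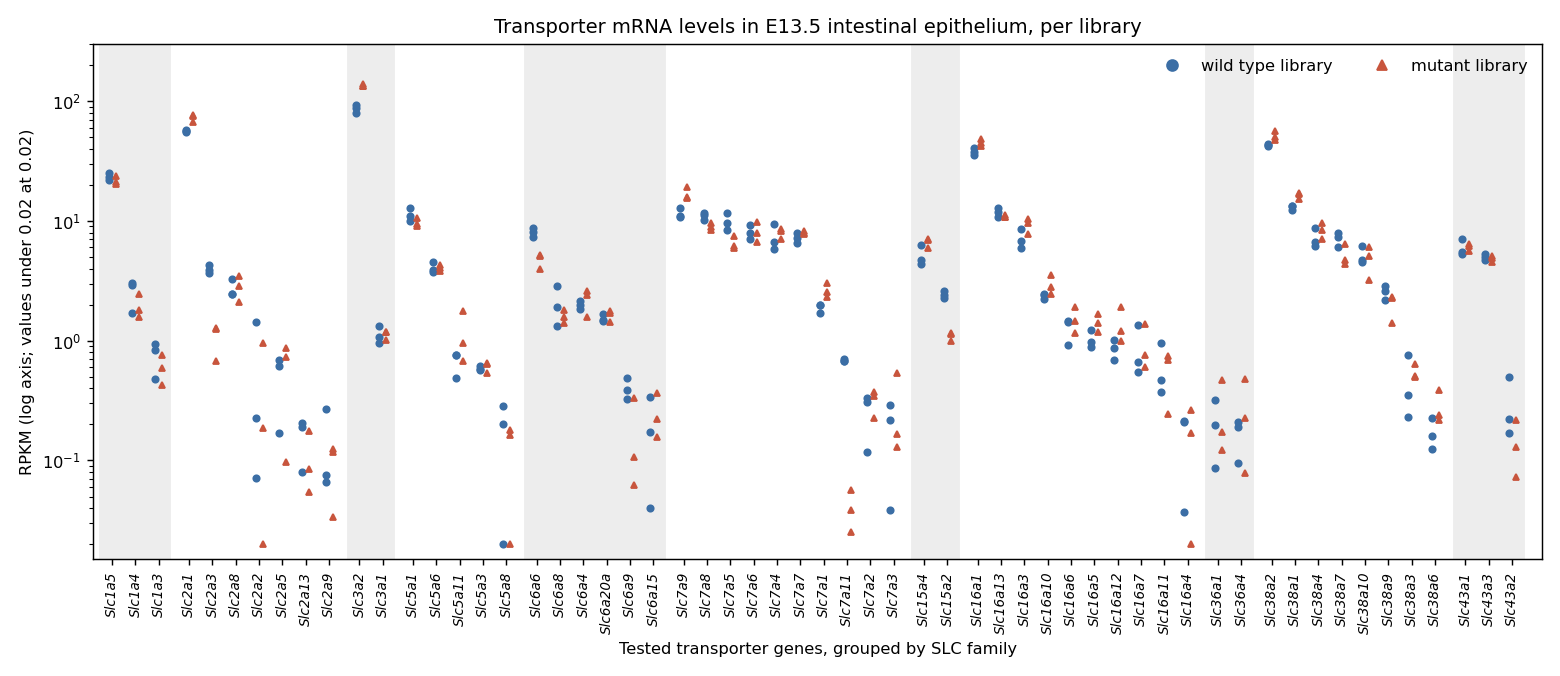
Level of 58 of the 59 tested transporter genes in reads per kilobase of exon, scaled to library size (RPKM, log axis), with 1 point for each library, grouped by SLC family and ordered by the wild type mean. Wild type means run from 86.5 for *Slc3a2* down to 0.14 for *Slc2a9*, and the wild type and mutant points of *Slc7a11* and *Slc2a3* stand apart.

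Levels in the wild type epithelium were compared per exon length, as RPKM (reads per kilobase of merged exons, scaled to library size). The highest was *Slc3a2*, the heavy chain also known as CD98, at 86.5 ± 7.23 (mean ± SD, n = 3). It was followed by *Slc2a1*, which encodes the glucose carrier GLUT1, at 56.4 ± 1.07, and by *Slc38a2*, which encodes a sodium-coupled carrier of small neutral amino acids, at 42.9 ± 0.87. The lactate and pyruvate carrier gene *Slc16a1* was at 37.9 ± 2.71 RPKM and the glutamine carrier gene *Slc1a5* at 23.5 ± 1.60. Each of these 5 was above the next in every wild type library. From the sixth place on, *Slc38a1*, *Slc16a13*, *Slc7a9*, *Slc5a1*, *Slc7a8* and *Slc7a5* followed between 13.01 and 9.89 RPKM, and the libraries of neighbours in this order overlapped. The leading 4 genes together held 51.2% of the summed RPKM of all 105. In wild type, 10 genes were at 10 RPKM or above, 23 at 5 or above and 37 at 1 or above. The 23 include *Slc38a5* through wild type 1 alone, with 17.3, 0 and 0.15 RPKM in wild type 1, 2 and 3.

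Most families rested on 1 strong gene. *Slc3a2* held 98.7% of the RPKM of SLC3, *Slc1a5* 87.2% of SLC1 and *Slc2a1* 86.6% of SLC2. *Slc15a4*, a lysosomal histidine and peptide carrier gene, held 67.8% of SLC15, the sodium-glucose carrier gene *Slc5a1* 65.6% of SLC5 and *Slc16a1* 58.8% of SLC16. The shares were 56.1% for the taurine carrier gene *Slc6a6* in SLC6, 52.7% for the leucine carrier gene *Slc43a1* in SLC43 and 50.9% for *Slc38a2* in SLC38. SLC7 was spread more evenly, since its highest gene, *Slc7a9*, held 19.7%. SLC36, the proton-coupled amino acid carriers, summed to 0.38 RPKM, the lowest of the 11 families.

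**Figure D2:**
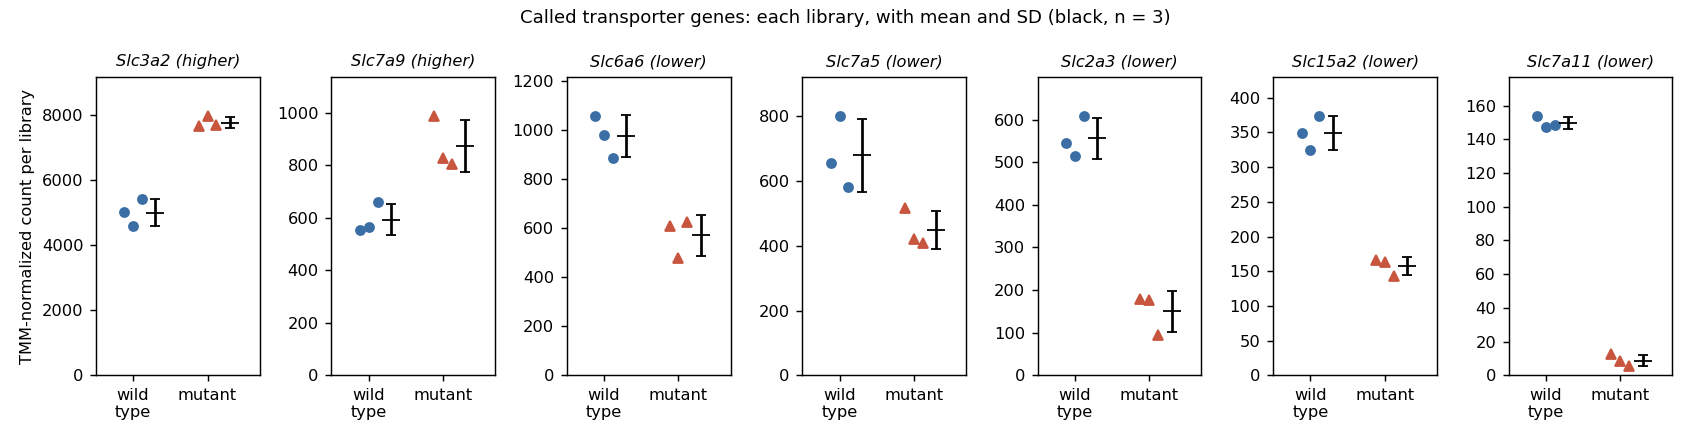
Normalized counts of the 7 called transporter genes in each library (blue circles, wild type; red triangles, mutant), with the mean and SD of 3 libraries in black and each axis starting at 0. No wild type point overlaps a mutant point in any panel, and *Slc7a11* falls from about 150 to between 5.53 and 12.4.

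The largest change was that of *Slc7a11*, the light chain of the cystine and glutamate exchanger xCT, which supplies cysteine for glutathione. It had 154, 147 and 148 normalized counts in wild type 1, 2 and 3, against 12.4, 8.52 and 5.53 in mutant 1, 2 and 3. The raw counts behind these were 164, 158 and 156 in wild type against 12, 8 and 5 in mutant libraries. Wild type libraries were thus nearly alike, and each mutant library was far below them. The log2 fold change was -4.06 (SE 0.37, adjusted p = 1.3e-06 in the quasi-likelihood fit of edgeR), and the mutant level was 16.7-fold lower. The gene was called in all 13 refits (another tool, scaling, filter, length correction or replicate block, or 1 library omitted), between -4.38 and -3.82. *Slc7a11* (ENSMUSG00000027737) is located on chromosome 3 (mm9, 50168858 to 50247535, minus strand).

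The 250 bases before the start sites of *Slc7a11* and of its heavy chain partner *Slc3a2* are shown because their products form 1 exchanger and the genes went opposite ways. They come from RefSeq (GRCm38.p6, not the mm9 of the counts), at chr3:50443614-50443863 and chr19:8713898-8714147, both on the minus strand and read 5′ to 3′. Capitals mark letters searched on both strands, TTGCATCA of the amino acid response and CTTTGAT and CTTTGAA of TCF/LEF factors, besides the E-box CACGTG.
Slc7a11: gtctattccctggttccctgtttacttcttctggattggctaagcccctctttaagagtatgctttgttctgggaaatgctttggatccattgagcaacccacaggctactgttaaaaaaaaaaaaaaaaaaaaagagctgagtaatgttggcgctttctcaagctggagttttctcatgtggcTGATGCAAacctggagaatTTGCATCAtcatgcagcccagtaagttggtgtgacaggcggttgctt
Slc3a2: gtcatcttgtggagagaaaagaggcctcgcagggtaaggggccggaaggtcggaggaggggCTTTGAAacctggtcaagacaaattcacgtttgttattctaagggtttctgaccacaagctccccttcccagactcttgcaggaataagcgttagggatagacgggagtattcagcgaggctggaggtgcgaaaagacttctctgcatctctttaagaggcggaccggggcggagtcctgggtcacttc
The *Slc7a11* promoter held the amino acid response letters once on each strand, beginning 66 and 47 bases before the start site. These letters were in 0.895% of 32851 promoter windows of 300 bases and, among the 76 transporter genes with a window, in those of *Slc7a11*, *Slc7a7* and *Slc1a4*. CTTTGAA stood 189 bases before the start site of *Slc3a2*. It was in 5.14% of all windows and 5.05% of the 99 windows of transporter genes, CTTTGAT in 3.73% and 4.04%, and CACGTG in 7.15% and 11.1%. The windows of *Slc7a9* and *Slc15a2* held none of these letters. *Slc2a3*, *Slc6a6* and *Slc7a5* were not matched to a window.

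*Slc3a2* rose in the mutants. It had 5011, 4569 and 5403 normalized counts in wild type against 7648, 7956 and 7668 in mutant libraries (log2 fold change of 0.64, SE of 0.07, adjusted p = 1.6e-05). Every mutant library was above every wild type library, and the mutant level was 1.55-fold the wild type level. *Slc3a2* (ENSMUSG00000010095) is located on chromosome 19 (mm9, 8781372 to 8797859, minus strand), and it was called in all 13 refits, between 0.53 and 0.78.

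None of the light chains that pair with SLC3A2 was called higher. *Slc7a5*, which encodes the large neutral amino acid exchanger LAT1, had 656, 800 and 580 normalized counts in wild type against 517, 421 and 409 in mutant libraries. The highest mutant library was below the lowest wild type library by less than the wild type SD of 112, and the log2 fold change was -0.60 (SE 0.15, adjusted p = 0.008). This call was lost without wild type 1 (adjusted p = 0.0237), wild type 2 (0.0563), mutant 2 (0.0363) or mutant 3 (0.038), and with a correction for gene length (-0.41, adjusted p = 0.039). *Slc7a8*, a further neutral amino acid exchanger of the basolateral membrane, had 800, 876 and 912 in wild type against 663, 698 and 750 in mutant libraries (log2 fold change -0.29, adjusted p = 0.0621). For *Slc7a7*, the exchanger that exports dibasic amino acids, the fitted value was 0.14 (SE 0.15, adjusted p = 0.52), and for the related *Slc7a6* it was 0.00 (SE 0.16, adjusted p = 0.99). *Slc7a10* had 3 counts in mutant 1 and 0 elsewhere.

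**Figure D3:**
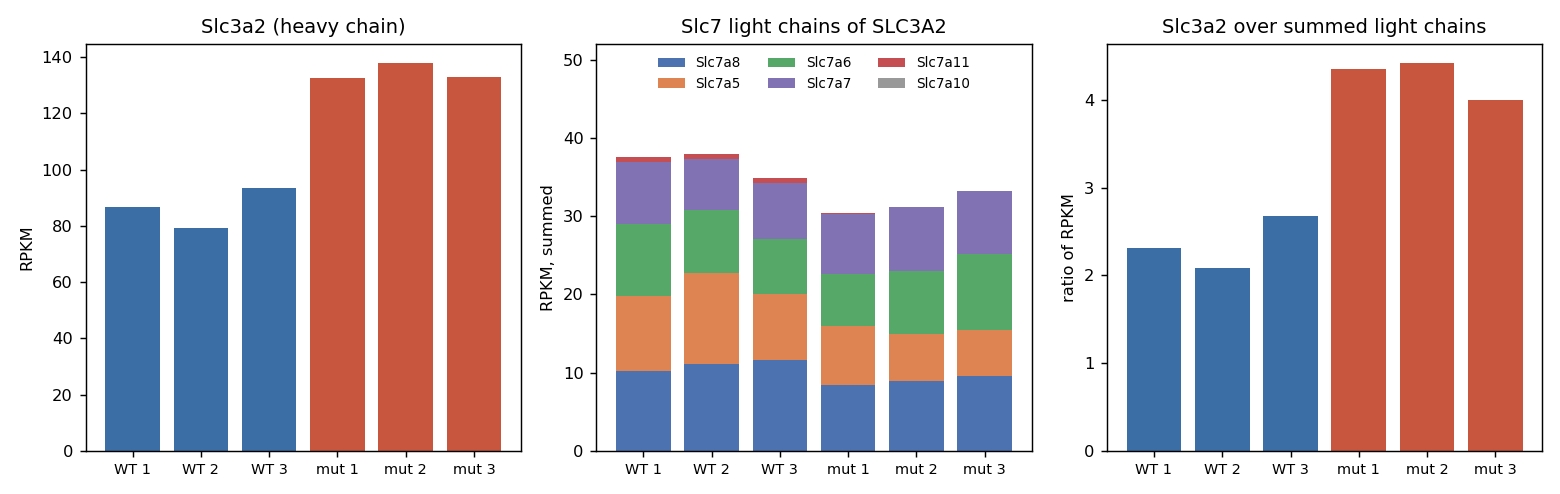
RPKM of the heavy chain gene *Slc3a2* (left), RPKM of its 6 light chain genes stacked (middle) and the ratio of the first to the sum of the second (right), with 1 bar for each library and axes from 0. The ratio is between 2.08 and 2.68 in wild type (WT) and between 4.0 and 4.42 in mutant (mut) libraries, and *Slc7a11* is too low to be seen in the mutant stacks.

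Per exon length, the 6 light chain genes of SLC3A2 summed to 37.6, 37.97 and 34.9 RPKM in wild type against 30.4, 31.2 and 33.2 in mutant libraries, while *Slc3a2* itself was at 86.8, 79.1 and 93.6 and at 132, 138 and 133. The ratio of heavy chain to summed light chains was 2.31, 2.08 and 2.68 in wild type against 4.36, 4.42 and 4.0 in mutant libraries, and the groups did not overlap. The means were 2.36 ± 0.30 and 4.26 ± 0.22, and the 2-sided exact permutation test gave p = 0.1, its smallest value for 3 libraries against 3. Within the light chains, *Slc7a8* made up 29.9%, *Slc7a5* 26.8%, *Slc7a6* 21.9%, *Slc7a7* 19.6% and *Slc7a11* 1.86% of the wild type RPKM. In the mutants the shares were 28.2%, 20.8%, 25.5%, 25.3% and 0.13%. The share of *Slc7a7* was higher and that of *Slc7a11* lower in each mutant library than in each wild type library, while the other shares overlapped.

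The other heteromeric system, of *Slc3a1* and *Slc7a9*, takes up cystine and dibasic amino acids at the brush border. *Slc7a9*, its light chain, rose from 553, 564 and 661 normalized counts in wild type to 987, 826 and 805 in mutant libraries (log2 fold change of 0.56, SE of 0.13, adjusted p = 0.0042). All mutant libraries were above the wild type libraries. The change was close to the threshold of 0.5, and the call was lost without wild type 1 (adjusted p = 0.0266), wild type 2 (0.0224), mutant 1 (0.031) or mutant 2 (0.0102), and with library size as the only scaling (0.46, adjusted p = 0.0154). *Slc7a9* (ENSMUSG00000030492) is located on chromosome 7 (mm9, 36234056 to 36251055, plus strand). Its heavy chain *Slc3a1* had 60.0, 48.5 and 42.8 in wild type against 52.8, 53.2 and 45.4 in mutant libraries (log2 fold change of 0.00, SE of 0.37, adjusted p = 0.998), while 26.4% of its exon bases lie opposite exons of *Prepl*. The RPKM of *Slc7a9* was 8.02, 10.12 and 13.44 times that of *Slc3a1* in wild type and 16.26, 13.51 and 15.45 times in mutant libraries. The means were 10.5 ± 2.73 and 15.1 ± 1.42 (exact permutation p = 0.1), and wild type 3 nearly reached mutant 2. These are ratios of mRNA, and the protein chains were not measured.

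Among the 16 brush border entry genes, *Slc7a9* was the only one called, of 8 tested. The share called in either direction over all tested genes was 8.62%. *Slc5a11*, *Slc2a5*, *Slc36a1* and *Slc5a8* averaged under 50 normalized counts over all libraries and so could not be called. Beside *Slc7a9*, the other entry gene with a high level was *Slc5a1*, the sodium-coupled glucose and galactose carrier SGLT1. It had 1026, 875 and 807 normalized counts in wild type against 729, 756 and 853 in mutant libraries, which overlapped (log2 fold change of -0.21, SE of 0.12, adjusted p = 0.20). *Slc6a20a*, a carrier of proline and other imino acids, had 79.7, 77.4 and 88.4 in wild type against 90.1, 76.7 and 94.0 in mutant libraries. The inositol carrier gene *Slc5a11* had 42.2, 27.0 and 41.8 in wild type against 97.3, 37.3 and 53.1 in mutant libraries (log2 fold change of 0.76, SE of 0.43, adjusted p = 0.21), and mutant 1 stood above the rest.

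Several genes that define absorption in the mature brush border were at or near 0. *Slc6a19*, the main neutral amino acid carrier of adult enterocytes, and *Slc5a12*, a lactate carrier, had 0 counts in all 6 libraries, where 3 counts correspond to between 2.80 and 3.32 normalized counts. *Slc15a1*, the intestinal peptide carrier PEPT1, had 1 count in each of mutant 2 and mutant 3 and 0 elsewhere, and the glutamate carrier gene *Slc1a1* had 1 count in wild type 3 and 4 in mutant 2. *Slc2a5*, the fructose carrier GLUT5, varied more within groups than between them, at 46.0, 11.2 and 40.9 in wild type against 58.0, 6.39 and 48.7 in mutant libraries. *Slc5a8* lay between 1.88 and 29.8 over all libraries and *Slc36a1* between 9.50 and 51.1. The remaining *Slc6a14*, *Slc5a9*, *Slc5a4a* and *Slc5a4b* did not pass the filter, with at most 22 counts in a library.

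A different peptide carrier gene was lower in the mutants. *Slc15a2*, which encodes the high-affinity peptide carrier PEPT2, known mainly from kidney, brain and lung, had 349, 324 and 374 normalized counts in wild type against 167, 164 and 143 in mutant libraries. The groups were well apart, and the level was 2.21-fold lower in the mutants (log2 fold change of -1.14, SE of 0.18, adjusted p = 2.3e-04). It was called in all 13 refits, between -1.25 and -0.94. *Slc15a2* (ENSMUSG00000022899) is located on chromosome 16 (mm9, 36750264 to 36785048, minus strand). *Slc15a4* had 358, 271 and 251 in wild type against 404, 342 and 395 in mutant libraries (log2 fold change of 0.37, SE of 0.17, adjusted p = 0.12). *Slc15a3* and *Slc15a5* had 1 count each over all libraries.

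Among the sugar carriers of the SLC2 family, the genes of GLUT3 and GLUT1 differed in direction. *Slc2a3*, which encodes GLUT3, a high-affinity glucose carrier best known from neurons, had 546, 515 and 608 normalized counts in wild type against 180, 177 and 95.1 in mutant libraries. Every mutant library was under the wild type range, mutant 3 the lowest, and the level was 3.68-fold lower (log2 fold change of -1.88, SE of 0.21, adjusted p = 1.1e-05). It was called in all 13 refits, between -2.03 and -1.64. *Slc2a3* (ENSMUSG00000003153) is located on chromosome 6 (mm9, 122677827 to 122751658, minus strand), like *Tcf7l1* and *Slc6a6*.

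*Slc2a1* had 3134, 3200 and 3080 in wild type against 4223, 3710 and 4302 in mutant libraries. All mutant libraries were above the wild type libraries, and the difference passed the adjusted p (log2 fold change of 0.38, SE of 0.08, adjusted p = 0.0021) but not the fold of the call. Dropping the minimum fold left 4 transporter genes higher and 5 lower on the adjusted p alone, beside 7.32% and 7.61% of all tested genes. The share of *Slc2a3* in the RPKM of the family was 5.84%, 5.60% and 6.70% in wild type and 1.54%, 1.76% and 0.83% in mutant libraries, and that of *Slc2a1* was 86.6% and 93.4% on average (exact permutation p = 0.1 for each share). *Slc2a2*, the basolateral carrier GLUT2 of enterocytes and hepatocytes, was uneven, at 76.9, 12.1 and 3.8 in wild type against 51.8, 0 and 9.96 in mutant libraries. *Slc2a8*, an intracellular carrier, lay between 95.1 and 157 in all libraries, and *Slc2a6* had 1 count in all. *Slc2a10* had 12 counts over the wild type libraries and 0 in the mutants. Against a floor of 3 counts over the mutant group it was 3.52-fold lower, with the wild type counts taken as exact.

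**Figure D4:**
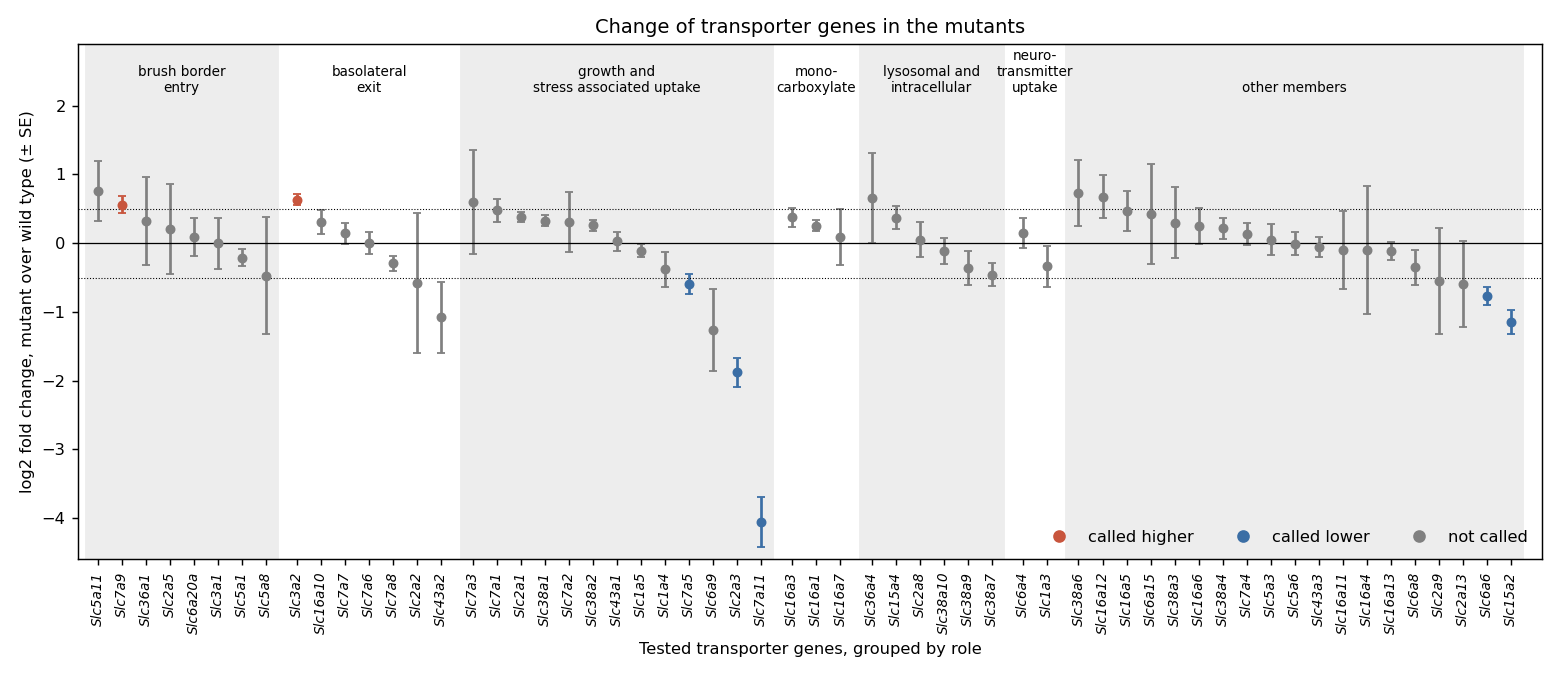
Log2 fold change of 58 of the 59 tested transporter genes, mutant over wild type, with the standard error of the fit, grouped by role and coloured by call (red higher, blue lower, grey not called). Dotted lines mark 0.5 and -0.5, the minimum fold of a call, and the values run from -4.06 for *Slc7a11* to 0.76 for *Slc5a11*.

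The 13 genes of growth and stress associated uptake were all tested, and 3 were called, each lower (*Slc7a11*, *Slc2a3* and *Slc7a5*). The shares over all tested genes were 5.83% lower and 2.78% higher. *Slc6a9* and *Slc7a3* averaged under 50 normalized counts and could not be called. The median log2 fold change of the 13 was 0.03, and 4 genes that were not called had all mutant libraries above all wild type libraries. These 4 were *Slc2a1*, *Slc7a1*, *Slc38a1* and *Slc38a2*. *Slc38a1*, a glutamine carrier, had 2170, 2184 and 2039 normalized counts in wild type against 2481, 2735 and 2799 in mutant libraries (log2 fold change of 0.33, SE of 0.08, adjusted p = 0.0068). *Slc38a2* had 3957, 3801 and 3877 in wild type against 4282, 4574 and 5065 in mutant libraries (0.26, SE 0.08, adjusted p = 0.0187). The arginine and lysine carrier gene *Slc7a1* had 292, 252 and 289 in wild type against 442, 374 and 343 in mutant libraries (0.48, SE 0.16, adjusted p = 0.0386). Among all tested genes, 20.8% had every mutant library above the wild type libraries and 22.2% every mutant library below. With the correction for gene length, *Slc2a1*, *Slc38a1* and *Slc7a1* also passed the call.

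The glutamine carrier gene *Slc1a5* had 2041, 1891 and 1783 normalized counts in wild type against 1918, 1722 and 1655 in mutant libraries, which overlapped (log2 fold change of -0.11, SE of 0.09, adjusted p = 0.39). Its relative *Slc1a4* lay between 130 and 230 in wild type and between 122 and 190 in mutant libraries. The leucine carrier gene *Slc43a1* had 609, 587 and 790 in wild type against 625, 683 and 712 in mutant libraries. *Slc6a9*, a glycine carrier, had 48.8, 32.6 and 39.0 in wild type against 6.21, 10.7 and 33.2 in mutant libraries (log2 fold change of -1.27, SE of 0.60, adjusted p = 0.13), and mutant 3 lay within the wild type range. *Slc7a2* and *Slc7a3*, further cationic amino acid carriers, had means of 45.3 and 13.4 in wild type against 56.1 and 20.4 in mutant libraries.

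The taurine carrier gene *Slc6a6* was lower in the mutants. It had 1056, 979 and 886 normalized counts in wild type against 608, 476 and 626 in mutant libraries, without overlap (log2 fold change of -0.77, SE of 0.13, adjusted p = 5.1e-04). The level was 1.71-fold lower, and the call held in all 13 refits, between -0.88 and -0.56. *Slc6a6* (ENSMUSG00000030096) is located on chromosome 6 (mm9, 91634061 to 91709057, plus strand), nearer to *Tcf7l1* (72576372 to 72739248) than *Slc2a3* is. In the same family, *Slc6a8*, the creatine carrier, had 193, 294 and 135 in wild type against 161, 184 and 143 in mutant libraries.

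Of the 13 neurotransmitter uptake genes, 5 had 0 counts throughout and 2 were tested. *Slc6a4*, the serotonin carrier, which intestinal epithelial cells also use to clear serotonin, had 175, 190 and 162 normalized counts in wild type against 212, 141 and 229 in mutant libraries (log2 fold change of 0.14, SE of 0.22, adjusted p = 0.67). *Slc1a3*, a glutamate carrier of glia and some epithelia, had 140, 80.2 and 155 in wild type against 70.4, 99.0 and 127 in mutant libraries. Those at 0 included *Slc6a2*, the noradrenaline carrier, *Slc6a5*, a glycine carrier, and *Slc6a11* and *Slc6a12*, which carry GABA. The other 6, *Slc6a3*, *Slc6a7*, *Slc6a13*, *Slc1a2*, *Slc1a6* and *Slc5a7*, had at most 11 counts in a library.

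Basolateral exit was represented by 8 genes, of which 7 were tested and *Slc3a2* was called. *Slc2a2* and *Slc43a2* averaged under 50 normalized counts and could not be called. *Slc16a10*, a carrier of aromatic amino acids, had 269, 295 and 286 normalized counts in wild type against 420, 294 and 340 in mutant libraries (log2 fold change of 0.31, SE of 0.17, adjusted p = 0.19). *Slc43a2*, a carrier of large neutral amino acids, had 97.5, 43.8 and 33.3 in wild type against 42.4, 25.6 and 14.4 in mutant libraries (log2 fold change of -1.08, SE of 0.52, adjusted p = 0.13). *Slc38a5*, a glutamine carrier encoded on chromosome X, had 806, 0 and 7 raw counts in wild type 1, 2 and 3, against 20, 7 and 0 in mutant libraries. Wild type 1 held 95.6% of its normalized counts, and the gene did not pass the filter. It was called lower where no filter was applied and where wild type 2 or wild type 3 was left out, so that these calls rest on wild type 1.

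The monocarboxylate carriers move lactate, pyruvate and ketone bodies together with protons. Several of them need the membrane protein basigin, encoded by *Bsg*, to reach the surface. *Slc16a1* had 3053, 3241 and 3519 normalized counts in wild type against 3862, 3640 and 4210 in mutant libraries, without overlap (log2 fold change of 0.26, SE of 0.08, adjusted p = 0.0271). *Slc16a3*, the lactate exporter of glycolytic cells, had 710, 888 and 618 in wild type against 1069, 803 and 1003 in mutant libraries (0.38, SE 0.14, adjusted p = 0.0605), while 15.6% of its exon bases lie opposite exons of *Csnk1d*. With the correction for gene length it was called higher (0.60, adjusted p = 0.0037). *Slc16a7* lay between 42.0 and 104 over all libraries, and *Slc16a8* had at most 10 counts in a library. *Slc16a13*, second of its family in wild type RPKM, had means of 585 ± 51.8 in wild type against 540.1 ± 12.8 in mutant libraries (log2 fold change of -0.11, SE of 0.13, adjusted p = 0.54).

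Of the 9 lysosomal and intracellular genes, 6 were tested and none was called. *Slc36a4* averaged under 50 normalized counts and could not be called. *Slc38a7*, which exports glutamine and asparagine from lysosomes, had 639, 490 and 596 normalized counts in wild type against 352, 382 and 520 in mutant libraries (log2 fold change of -0.46, SE of 0.16, adjusted p = 0.0465), and mutant 3 lay within the wild type range. *Slc38a9*, the lysosomal arginine sensor of the mTORC1 pathway, had 155, 171 and 131 in wild type against 135, 83.1 and 137 in mutant libraries (-0.36, SE 0.25, adjusted p = 0.30). *Slc38a10* lay between 402 and 776 in all libraries, *Slc36a4* between 8.52 and 51.8, and *Slc7a14* had 25, 0 and 3 counts in wild type and 0 in each mutant library.

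The remaining 42 transporter genes, which no role list held, included 20 tested genes. Of these, *Slc15a2* and *Slc6a6* were called and the other 18 were not, with a median log2 fold change of -0.03 over the 20. By wild type RPKM, the highest uncalled ones after *Slc16a13* were, with their normalized counts, *Slc7a4*, a relative of the cationic amino acid carriers without a known substrate (566 ± 142 in wild type against 620.4 ± 61.8 in mutant libraries), the neutral amino acid carrier gene *Slc38a4* (562 ± 106 and 652 ± 100.4), the nucleobase carrier gene *Slc43a3* (437 ± 26.8 and 421 ± 25.8) and the vitamin carrier gene *Slc5a6* (315 ± 35.1 and 314 ± 17.4). The log2 fold changes of all 18 ran from -0.59 for the inositol carrier gene *Slc2a13* to 0.73 for *Slc38a6*. Both genes averaged under 50 normalized counts and could not be called. Counts of 0 in all libraries were found for *Slc6a18*, *Slc7a12*, *Slc7a15*, *Slc36a2*, *Slc38a8* and *Slc38a11*, and the 16 under the filter had at most 40 counts in a library. Of the transporter genes encoded on chromosome X, *Slc6a8* and *Slc7a3* were tested and not called.

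A list of 20 partners and regulators of these transporters held 19 genes of the files, of which 18 were tested. Of these 18, 2 were called higher, 1 lower and 15 were not called, with a median log2 fold change of -0.09. The shares over all tested genes were 2.78% higher and 5.83% lower. *Sgk1*, a kinase that raises the surface level of many carriers, had 324, 474 and 508 normalized counts in wild type against 986, 847 and 980 in mutant libraries (log2 fold change of 1.11, SE of 0.16, adjusted p = 1.0e-04). *Pdzk1*, a scaffold of brush border carriers, had 180, 242 and 191 in wild type against 71.4, 103 and 84.1 in mutant libraries (-1.24, SE 0.24, adjusted p = 0.0013), while 39.4% of its exon bases lie opposite exons of *Cd160* and *Gpr89*. All mutant libraries of both genes lay outside the wild type range.

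Of the regulators of transporter genes, *Atf4*, the transcription factor of the amino acid response, had 4968, 5117 and 5319 normalized counts in wild type against 6818, 7365 and 7192 in mutant libraries. The groups did not overlap, and the difference passed the adjusted p but fell just short of the minimum fold (log2 fold change of 0.47, SE of 0.07, adjusted p = 1.3e-04). *Nfe2l2*, the transcription factor of the oxidative stress response, had 4446, 4473 and 4695 in wild type against 3734, 4080 and 3759 in mutant libraries (-0.23, SE 0.07, adjusted p = 0.022). *Bsg* was at 26410, 25610 and 29990 in wild type against 30080, 31690 and 29730 in mutant libraries (0.16, SE 0.07, adjusted p = 0.0948). *Tmem27*, the collectrin that some SLC6 carriers need at the membrane, had 352, 257 and 345 in wild type against 439, 445 and 340 in mutant libraries (0.36, SE 0.17, adjusted p = 0.13).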

How the data were processed

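Count tables of 6 libraries were used, each of 500 EpCAM-positive cells whose cDNA was amplified for 15 PCR cycles. Per the labels and the study's methods, the authors mapped reads with STAR 2.5.2b to mm9, assigned unique reads to UCSC genes with featureCounts 1.5.1 and deposited these raw counts. Whether counting used strand is not stated. The authors' own test used DESeq2 1.18.1.

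Genes were tested here with edgeR 4.0.16 in R 4.3.3 (TMM normalization, filterByExpr, quasi-likelihood test on genotype, Benjamini-Hochberg adjustment over 12501 genes). The common dispersion was 0.0209. The normalized count is the count divided by the TMM effective library size and multiplied by the mean of that size. RPKM used merged exon lengths of GENCODE M1 (mm9), which may exceed the transcripts expressed, and had a length for 90.9% of genes. Floors cover counting error only. The SE of a log2 fold change was derived from the quasi-likelihood test and so includes the spread between libraries. Libraries had no molecular identifiers, so reads and not molecules were counted.

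The members and lists were chosen with earlier results of these data known. Genes named are those called, the 3 highest of each family by wild type RPKM, the members of 6 role lists and those at 0 in 1 group with at least 10 counts in the other. Outside this rule, *Slc2a9*, *Slc2a12*, *Slc2a13*, *Slc6a18*, *Slc7a4*, *Slc7a10*, *Slc7a12*, *Slc7a15*, *Slc15a5*, *Slc36a2*, *Slc38a6*, *Slc38a8* and *Slc38a11* were named after their values were seen. Alternatives covered the tool (DESeq2 1.42.0), the scaling (RLE or library size alone), filters, thresholds, gene length (loess with span 0.5), the replicate number as a block and omission of each library. BLAST+ 2.17.0 found no near-identical copy (95% identity or more across 50% or more of the longest transcript) for any of the 105 genes. Some genes of the lists are not reported here. Figures were drawn with matplotlib 3.10.9 in Python 3.11.15.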

Additional observations from a re-analysis of the deposited data

How the results depend on the processing

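The same 2 genes were called higher and the same 5 lower with DESeq2, RLE normalization, a filter at a mean of 50 counts, an adjusted p under 0.05 and the replicate block. Library size as the only scaling, which shifted the median of all genes by -0.11, called 1 gene higher and 5 lower (16.7% of calls higher, beside 28.6%, and 17.3% beside 32.3% over all genes). The gene-length correction, which shifted it by 0.13, called 6 higher and 4 lower (60% higher, and 64.3% over all genes). A minimum log2 fold change of 1 left 0 higher and 3 lower, no minimum fold gave 4 higher, and an RPKM of at least 50 left 1 higher, *Slc3a2*, and 0 lower. With no minimum count in the filter 6 were lower. With each library left out in turn, between 1 and 2 were higher and between 4 and 6 lower. *Slc3a2*, *Slc7a11*, *Slc2a3*, *Slc15a2* and *Slc6a6* were called in all 13 refits (thresholds apart), and *Slc7a9* and *Slc7a5* in 8. Same-numbered libraries did not deviate together (correlations of 0.01, -0.04 and -0.02), so the numbers were not taken as pairs, and the block changed no call.

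Of 46 named and tested transporter genes, 28 kept their direction in all fits. None of the other 18 was called, and the cause of each change of sign was not tested. With library size alone the log2 fold change turned to -0.11 for *Slc3a1*, -0.059 for *Slc2a8*, -0.077 for *Slc43a1*, -0.10 for *Slc7a6* and -0.017 for *Slc6a20a*. With the gene-length correction it turned to 0.10 for *Slc38a10*, 0.16 for *Slc43a3*, 0.21 for *Slc5a6*, 0.004 for *Slc5a1* and 0.11 for *Slc1a5*. The filter at a mean of 50 counts gave -0.013 for *Slc3a1* and -0.01 for *Slc7a6*, the replicate block -0.003 for *Slc7a6*, while DESeq2 gave 0.018 and RLE normalization 0.017 for *Slc5a6*. With 1 library omitted at a time, the range was -1.003 to 0.14 for *Slc5a8*, -0.32 to 0.59 for *Slc16a7*, -0.46 to 0.83 for *Slc36a1*, -0.32 to 0.10 for *Slc38a10*, -0.089 to 0.15 for *Slc3a1*, -0.13 to 0.22 for *Slc2a8*, -0.054 to 0.19 for *Slc43a1*, -0.10 to 0.004 for *Slc43a3*, -2.62 to 1.36 for *Slc2a2*, -0.25 to 0.71 for *Slc2a5*, -0.062 to 0.09 for *Slc5a6*, -0.022 to 0.56 for *Slc7a2*, -0.15 to 0.13 for *Slc7a6*, -0.12 to 1.09 for *Slc36a4* and -0.30 to 1.11 for *Slc7a3*. Genes with a mean under 50 normalized counts could not be called, whatever their fold.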

Other observations

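*Slc2a12* and *Slc6a14*, both under the filter, were read unevenly within the wild type group. *Slc2a12*, a glucose carrier gene, had 0, 37 and 40 raw counts in wild type 1, 2 and 3, against 0, 2 and 0 in mutant libraries. *Slc6a14*, a carrier of neutral and cationic amino acids encoded on chromosome X, had 0, 22 and 0 counts in wild type, and the mutants had 8, 8 and 15. Each was chosen after its values were seen, and no test was run on them.

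The summed RPKM of all 105 transporter genes was 453, 424 and 435 in the wild type libraries, while the mutants had 514, 490.5 and 518. The means were 437 ± 14.6 and 507 ± 14.8 (exact 2-sided permutation p = 0.1, the smallest possible for 3 libraries against 3). *Slc3a2* alone differed by 47.9 RPKM and the sum by 70.2. These sums depend on the TMM factors, which lay between 1.007 and 1.059 in wild type and between 0.957 and 0.969 in mutant libraries. The share of raw counts on the 105 genes overlapped between groups, at 0.185%, 0.179% and 0.173% in wild type against 0.189%, 0.179% and 0.193% in mutant libraries.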
